A study of Mus musculus with 6 samples.

Results

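The imprinted fetal growth genes are H19, Igf2, Dlk1, Meg3, Mest, Peg3, Plagl1, Cdkn1c, Grb10 and Ndn. They were taken by symbol from the deposited gene table, where each of the 10 matched a single entry among 54532 genes, and all 10 were among the 16471 genes that passed the expression filter and were tested. RNA-seq had been run on the epidermis of newborn mice, with 3 knockout libraries of Paxbp1 and 3 wild type libraries. Paxbp1 encodes a partner of the transcription factors Pax3 and Pax7, and the study asked how it acts in epidermal homeostasis. The epidermis had been peeled from the dermis after an overnight incubation in Dispase II. The labels leave unstated the deleted part of Paxbp1, any Cre driver, the strain, the exact age and the number of animals per library, so a p-value here reflects only how much single libraries vary, which may be technical.

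Imprinted genes are expressed mainly from the copy inherited from the mother or mainly from that inherited from the father, set by DNA methylation laid down in the germ line. Many of them set growth before birth, as ligands (Igf2, Dlk1), as brakes on the cell cycle or on receptor signalling (Cdkn1c, Grb10, Ndn), as transcription factors (Plagl1, Peg3) or as long noncoding RNAs (H19, Meg3). Most are high in fetal mesenchyme and muscle and are shut down after birth, and mouse Plagl1 is known as a regulator of several of the others, H19, Igf2, Cdkn1c and Dlk1 among them. The counts used here do not tell the parental copies apart.

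Of the 10 genes, 5 rose in the knockout (Meg3, Dlk1, Ndn, Grb10 and Cdkn1c), 1 fell (Plagl1) and 4 did not pass the test (Mest, Peg3, H19 and Igf2), by edgeR's quasi-likelihood test (threshold 0.05 on the Benjamini-Hochberg adjusted p, taken over the whole table). Among all genes tested, 28.7% were called higher and 25.1% lower, so a call in either direction was common in these libraries. All 3 knockout libraries lay above all 3 wild type libraries for the 5 that rose, where 31.9% of all genes did so, and below them for Plagl1, where 30.4% did. The median log2 fold change of the 10 genes was 0.85, and that of all genes tested was -0.029. Of the 4 genes expressed from the maternal copy (H19, Meg3, Cdkn1c and Grb10) 3 rose, and of the 6 expressed from the paternal copy (Igf2, Dlk1, Mest, Peg3, Plagl1 and Ndn) 2 rose and 1 fell. With upper-quartile scaling 4 of the 10 rose and 2 fell, and with library-size scaling 5 rose and 2 fell. These scalings moved the median of all genes to -0.22 and -0.18.

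**Figure D1:**
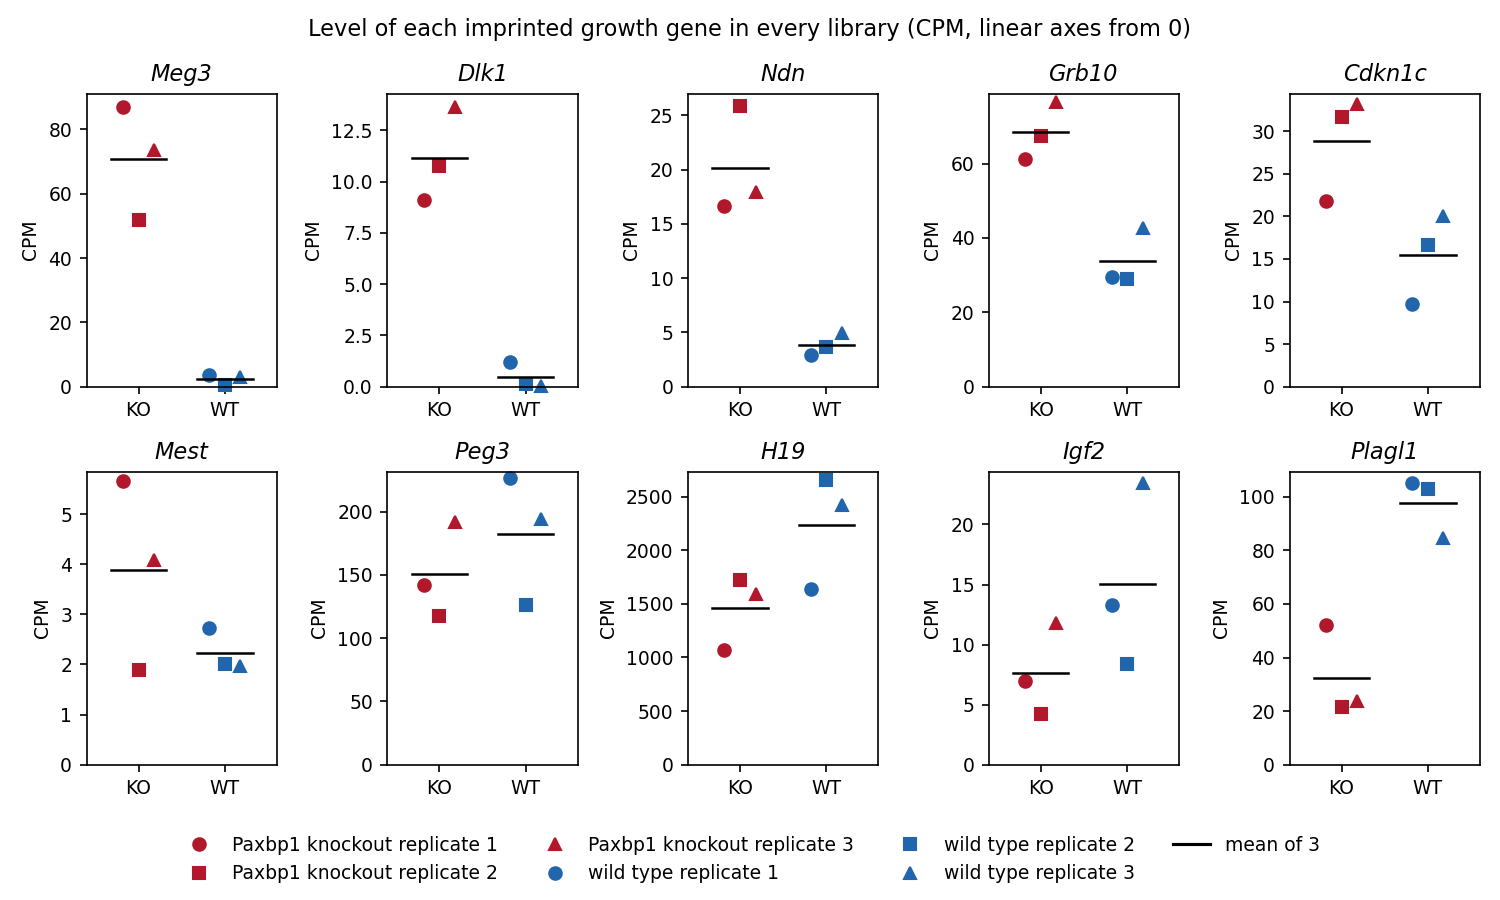
Level of each of the 10 genes in every library, in CPM, counts scaled by TMM-adjusted library size (linear axes from 0), with the knockout left of the wild type, a symbol per library and a line at the mean of 3. Relative to the wild type mean, Meg3, Dlk1 and Ndn show the widest gaps upward (knockout means of 70.7, 11.2 and 20.2 CPM, wild type means of 2.43, 0.459 and 3.87 CPM), and Plagl1 lies lower (32.4 CPM in the knockout, 97.7 CPM in the wild type).

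Library totals ran from 16315317 to 17816327 counts. Paxbp1 itself had 2370, 1127 and 1125 counts in the libraries labelled knockout and 2007, 1159 and 1467 in the wild type libraries (log2 fold change 0.10 ± 0.29 SE, edgeR adjusted p = 0.783), so its gene total does not check the labels, and every direction here is that of the libraries as labelled. Keratinocyte markers were present in both groups, but their summed level was 4879 to 12466 CPM in the knockout and 87445 to 143185 CPM in the wild type, with 11 of 12 lower (Krt1 -3.49 ± 0.52, Krt10 -3.76 ± 0.54, log2 fold changes ± SE). Of 12 fibroblast markers 11 were higher and 1 lower (summed 4147 to 10514 CPM in the knockout, 775 to 827 CPM in the wild type), with Col1a1 at 8.34 ± 1.11, Col3a1 at 7.46 ± 1.12 and a list median of 7.45. The marker that was lower is Postn (72.4 CPM in the knockout, 544 CPM in the wild type), which with Dcn (500.3 CPM in the knockout, 209 CPM in the wild type) made up most of the wild type sum. All 8 macrophage markers were higher (9307 to 17656 CPM in the knockout, 131 to 148 CPM in the wild type), Mrc1 by 9.88 ± 0.50, and Cd163 had a single wild type count. The libraries numbered 1 had the most genes with a count, 24380 in the knockout and 24236 in the wild type, against 22059 to 22556 in the others. In such bulk samples, fewer cells of a type and less RNA per cell cannot be told apart.

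Markers of other cell types were also higher in the knockout in most lists. Where wild type levels were very low, a marker could pass the expression filter through the knockout libraries alone. The counts of tested markers called higher are therefore partly fixed by the filter. All 3 tested of 6 neutrophil markers were higher (summed 782 to 1215 CPM in the knockout, 1.47 to 2.56 CPM in the wild type), and Csf3r (8.58 ± 0.37) and Cxcr2 (11.15 ± 0.64) were the most abundant, while Retnlg and Ly6g were at 0 in every wild type library. All 5 tested of 8 endothelial markers were higher (197 to 366 CPM in the knockout, 1.22 to 4.64 CPM in the wild type, where Emcn was at 0), with Pecam1 at 7.70 ± 0.40 and Vwf at 3.67 ± 0.49. Of 7 tested of 10 skeletal muscle markers, 6 were higher (22.2 to 40.5 CPM in the knockout, 6.31 to 7.70 CPM in the wild type), and Myod1 was at 0 in the wild type. Des had 2 wild type counts, and Mylpf, which held most of the wild type sum, was not called (-0.89 ± 0.36). Both tested of 6 adipocyte markers, Fabp4 (4.30 ± 0.56) and Pparg (2.06 ± 0.46), were higher (summed 179 to 469 CPM in the knockout, 9.0 to 30.8 CPM in the wild type), while Adipoq and Plin1 had counts in knockout replicate 1 only, 36 and 54. Of 4 tested Schwann cell markers 2 were higher (summed 33.7 to 50.8 CPM in the knockout and 25.6 to 41.2 CPM in the wild type), and Sox10 was not called (-0.40 ± 0.26). Of 5 melanocyte markers 3 were lower, Dct (-1.69 ± 0.28) and Pmel (-1.24 ± 0.30) among them, and 1 higher (139 to 277 CPM in the knockout, 377 to 535 CPM in the wild type). The part of these cell types in the results on the 10 genes was not tested.

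**Figure D2:**
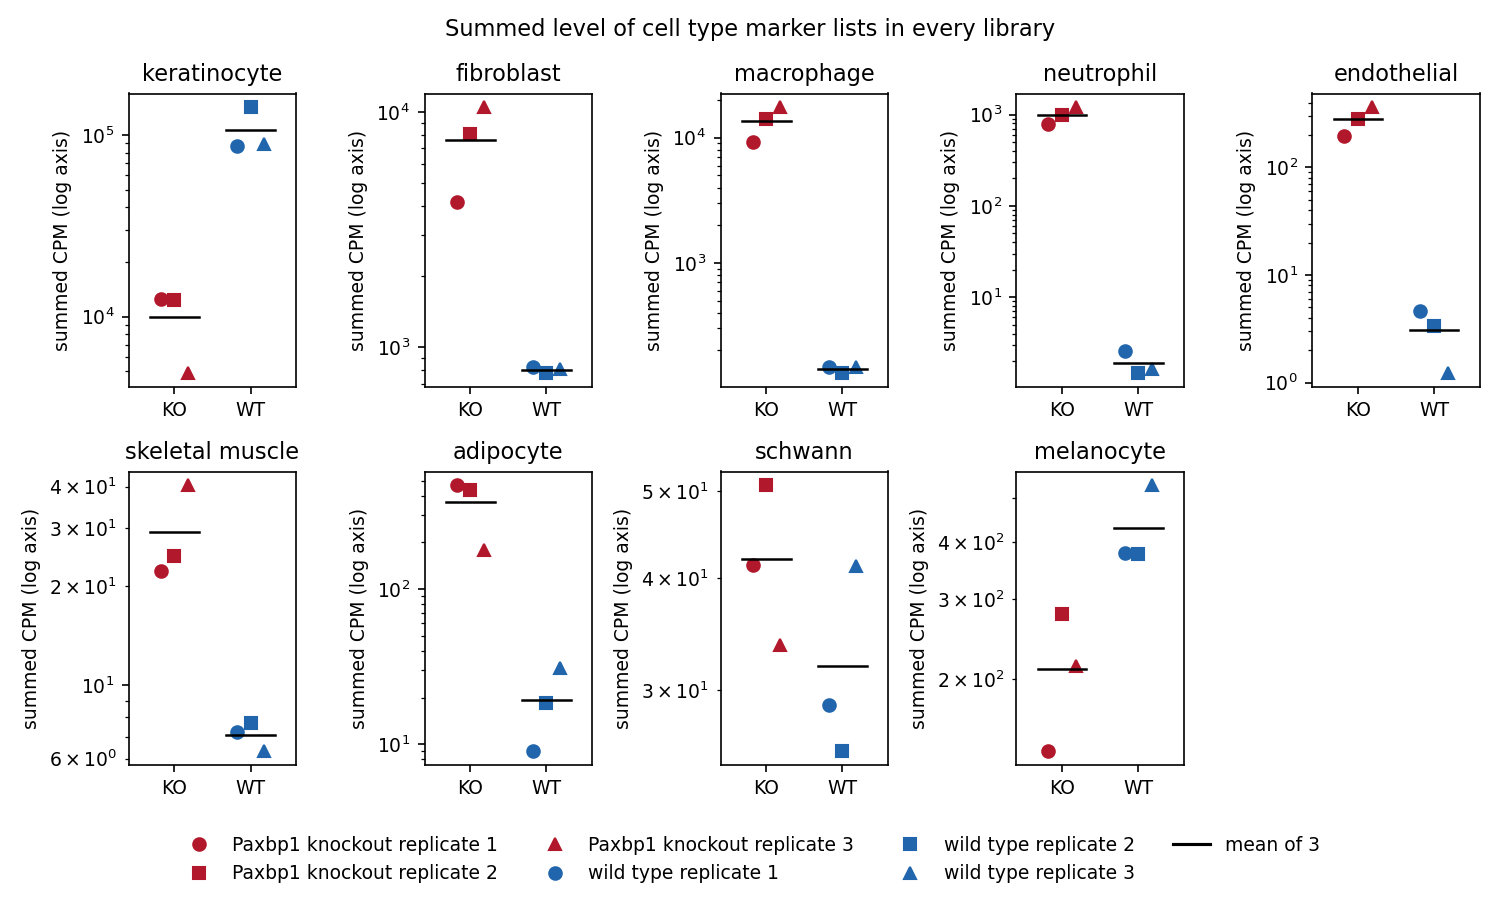
Summed CPM of each cell type marker list in every library (log axes), with the knockout left of the wild type, a symbol per library and a line at the mean of 3. Fibroblast sums lie at 4147 to 10514 CPM in the knockout and 775 to 827 CPM in the wild type, where Postn and Dcn make up most of it, and keratinocyte sums at 4879 to 12466 CPM in the knockout and 87445 to 143185 CPM in the wild type.

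Meg3 and Dlk1, which lie in the same domain of chromosome 12, had the largest rises of the 10 genes. Meg3, a maternally expressed long noncoding RNA (ENSMUSG00000021268, chromosome 12, 109541001 to 109571726, plus strand, mm10), had 1534, 794 and 1186 counts in the knockout libraries and 65, 11 and 58 in the wild type libraries. This was 86.9, 51.9 and 73.5 CPM in the knockout, against 3.55, 0.672 and 3.08 CPM in the wild type. Every knockout library was thus far above every wild type library, and the fold was 28.8 (unadjusted 95% interval 13.7 to 60.4, log2 fold change 4.85 ± 0.48 SE, edgeR adjusted p = 1.14e-05).

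Dlk1, a paternally expressed transmembrane and secreted ligand of the Notch family that holds back differentiation of fat and muscle precursors, lies 77665 bases upstream (ENSMUSG00000040856, 109452823 to 109463336, plus strand). It had 161, 165 and 220 counts in the knockout libraries and 22, 2 and 1 in the wild type libraries, or 9.12, 10.8 and 13.6 CPM in the knockout and 1.2, 0.122 and 0.0531 CPM in the wild type. The groups did not overlap, and wild type replicate 1 held 22 of the 25 wild type counts. The log2 fold change was 4.57 ± 0.72 (edgeR adjusted p = 0.000298). Without wild type replicate 1 it was 6.91, a fitted value that rests on the 3 wild type counts left. Of the 12 fibroblast markers, 11 were highest in wild type replicate 1 among the wild type libraries and 1, Dcn, was not. Their summed level was 827, 775 and 808 CPM in wild type replicates 1 to 3. Wild type replicate 1 also had more genes with a count (24236) than wild type replicates 2 and 3 (22059 and 22121). The share of all genes highest in wild type replicate 1 was not determined. In the knockout the fibroblast sum was 4147, 8049 and 10514 CPM in replicates 1 to 3. Dlk1 was lowest in knockout replicate 1, whereas Meg3 was highest there.

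The noncoding RNAs Rian and Mirg, transcribed from the same maternal copy downstream of Meg3, moved with it. Rian had 93.0, 89.5 and 104 CPM in the knockout and 2.51, 0.917 and 1.75 CPM in the wild type (log2 fold change 5.77 ± 0.34, edgeR adjusted p = 3.53e-07). Mirg had 142, 93 and 104 counts in the knockout libraries and 6, 0 and 5 in the wild type libraries (5.03 ± 0.62, edgeR adjusted p = 5.46e-05). At the other end of the domain Begain fell, with 3.96, 1.76 and 1.98 CPM in the knockout against 14.5, 9.96 and 13 CPM in the wild type (-2.27 ± 0.36, edgeR adjusted p = 0.000336). Rtl1, a retrotransposon-derived gene expressed from the paternal copy, and the deiodinase gene Dio3 were too low to test, with 31, 9 and 6 and 12, 2 and 8 counts in the knockout libraries and 1 count each over the wild type libraries. Meg3 exceeded Dlk1 per length in every knockout library (FPKM ratios of 2.98, 1.5 and 1.69), against ratios of 0.924, 1.72 and 18.1 in the wild type, where the last rests on a single Dlk1 count (log2 difference -0.64, two-sided exact permutation p = 0.8, n = 3 each, smallest possible 0.1).

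The RefSeq promoters (GRCm38.p6, 250 bases before to 50 after the start, on the strand of the gene) of these 2 genes are shown because Dlk1 and Meg3 moved together, beside that of Plagl1, which moved the other way. Capitals mark CpG pairs, the sites that DNA methylation acts on.
Dlk1 (chr12:109452573-109452872, plus strand): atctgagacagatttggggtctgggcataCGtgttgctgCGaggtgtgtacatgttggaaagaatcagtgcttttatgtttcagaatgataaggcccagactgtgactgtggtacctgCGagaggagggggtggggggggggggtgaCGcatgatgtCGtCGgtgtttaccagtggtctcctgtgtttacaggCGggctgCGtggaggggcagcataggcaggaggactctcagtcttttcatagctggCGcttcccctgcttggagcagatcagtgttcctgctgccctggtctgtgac
Meg3 (chr12:109540746-109541045, plus strand): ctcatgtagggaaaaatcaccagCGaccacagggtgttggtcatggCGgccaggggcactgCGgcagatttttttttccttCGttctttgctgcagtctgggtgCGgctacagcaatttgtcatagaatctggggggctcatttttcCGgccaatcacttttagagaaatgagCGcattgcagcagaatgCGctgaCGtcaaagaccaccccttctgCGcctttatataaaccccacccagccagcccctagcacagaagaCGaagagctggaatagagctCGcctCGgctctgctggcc
Plagl1 (chr10:13090582-13090881, plus strand): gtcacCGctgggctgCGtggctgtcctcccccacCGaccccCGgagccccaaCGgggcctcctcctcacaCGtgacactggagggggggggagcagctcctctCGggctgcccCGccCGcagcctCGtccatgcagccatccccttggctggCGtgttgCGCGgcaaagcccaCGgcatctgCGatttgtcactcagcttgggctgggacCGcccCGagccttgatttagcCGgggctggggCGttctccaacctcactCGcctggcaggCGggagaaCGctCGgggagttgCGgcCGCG
The Dlk1 window holds 9 CpG pairs, the Meg3 window 13 and the Plagl1 window 26, and the median over 32851 promoters is 7. A second Meg3 start lies inside the gene, and its window holds 1. The windows of Grb10 hold 45 and 9 and that of Ndn 11, and both genes rose as well. Those of the genes not called hold 13 (Peg3), 8, 17 and 17 (Mest) and 2, 14, 24 and 7 (Igf2). H19 and Cdkn1c had no promoter entry. With a single gene that fell, and starts of the same gene that differ widely, these numbers cannot show whether CpG pairs go with direction.

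Meg3, Rian and Mirg also host microRNAs. RefSeq places 3 mature microRNAs inside Meg3 on its strand, 6 inside Rian and 26 inside Mirg. They are shown for Meg3 to identify what this RNA carries, with the seed (bases 2 to 8) in capitals, and no seed is shared among them.
miR-770-5p: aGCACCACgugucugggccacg
miR-770-3p: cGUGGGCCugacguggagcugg
miR-1906: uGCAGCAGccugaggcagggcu
The table does not follow these small RNAs, since the 22 hairpins within Meg3, Rian, Mirg, H19, Igf2 and Mest had 8 counts together over the 6 libraries. The rise described here is that of the host RNAs.

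Plagl1, a zinc finger transcription factor that restrains proliferation (ENSMUSG00000019817, chromosome 10, 13060504 to 13131694, plus strand), was the gene that fell. It had 921, 328 and 383 counts in the knockout libraries and 1929, 1684 and 1598 in the wild type libraries, or 52.2, 21.4 and 23.7 CPM in the knockout and 105, 103 and 84.8 CPM in the wild type. Knockout replicate 1 was the highest of its group and still below the lowest wild type library. The fold was 0.332 (unadjusted 95% interval 0.202 to 0.548, log2 fold change -1.59 ± 0.33, edgeR adjusted p = 0.00177). Of 6 tested genes within 250 kb of Plagl1, 1 was higher and none lower, against 28.7% and 25.1% among all genes. The higher one was Stx11, a gene of immune cell secretion (3.13 ± 0.25). The relatives of Plagl1, Plag1 and Plagl2, were not called (log2 fold changes -1.08 ± 0.50 and 0.19 ± 0.21, edgeR adjusted p = 0.0903 and 0.474).

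Of the genes that mouse Plagl1 is known to act on, Cdkn1c and Dlk1 rose, and H19 and Igf2 had negative log2 fold changes that did not pass the test. The motif of Plagl1 (GGGGCCCC, which reads the same on both strands) was searched in the 15 RefSeq promoters of 8 of the 10 genes, with H19 and Cdkn1c not among the entries used here. It was found once, in Peg3, and 1.08% of all 32851 promoters hold it.
Peg3 (chr7:6730370-6730669, minus strand, motif in capitals): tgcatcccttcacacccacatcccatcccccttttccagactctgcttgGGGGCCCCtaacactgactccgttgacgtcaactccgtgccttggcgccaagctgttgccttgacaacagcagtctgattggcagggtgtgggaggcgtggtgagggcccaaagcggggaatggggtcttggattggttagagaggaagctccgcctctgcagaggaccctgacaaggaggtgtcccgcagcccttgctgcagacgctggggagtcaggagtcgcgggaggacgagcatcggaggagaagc

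H19, a maternally expressed long noncoding RNA (ENSMUSG00000000031, chromosome 7, 142575529 to 142578143, minus strand), was the most abundant of the 10 genes by far. Per length it had 430, 692 and 650 FPKM in the knockout and 637, 1066 and 965 FPKM in the wild type. No other of the 10 exceeded 16.4 FPKM in any of the 6 libraries. Among genes of at least 200 bases it ranked 61st to 86th by FPKM in the knockout libraries and 39th to 45th in the wild type libraries. Its counts were 18852, 26380 and 25720 in the knockout and 29929, 43410 and 45626 in the wild type. In CPM this was 1068, 1724 and 1593 in the knockout and 1633, 2654 and 2421 in the wild type, so that the groups overlapped at knockout replicate 2 and wild type replicate 1. The fold was 0.654 (unadjusted 95% interval 0.393 to 1.09, log2 fold change -0.61 ± 0.33, edgeR adjusted p = 0.144), and H19 was called lower only with library-size scaling (adjusted p = 0.0277).

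Igf2, the paternally expressed insulin-like growth factor that drives fetal growth, lies 72623 bases from H19 (ENSMUSG00000048583, 142650766 to 142666816, minus strand) and shares its enhancers. It had 123, 65 and 190 counts in the knockout libraries and 244, 137 and 442 in the wild type libraries, or 6.97, 4.25 and 11.8 CPM in the knockout and 13.3, 8.38 and 23.5 CPM in the wild type. The groups overlapped, since knockout replicate 3 lay above wild type replicate 2, but each knockout library was lower than the wild type library with its number (3 of 3). The log2 fold change was -0.97 ± 0.43 (fold 0.509, unadjusted 95% interval 0.263 to 0.985, edgeR adjusted p = 0.0783). With the replicate number as a block Igf2 was called lower (-0.97 ± 0.21, edgeR adjusted p = 0.00345), and it was called without knockout replicate 3 (adjusted p = 0.0254) or wild type replicate 2 (adjusted p = 0.0284), with upper-quartile scaling (0.0388) and with no filter (0.00510). It was not called when any other single library was left out, and then the log2 fold change was as small as -0.49 without wild type replicate 3 (adjusted p = 0.395) and -0.68 without knockout replicate 2 (adjusted p = 0.215). The antisense RNA Igf2os overlaps it and fell (34, 8 and 7 counts in the knockout, 75, 74 and 73 in the wild type, -2.09 ± 0.55, edgeR adjusted p = 0.00810). Since the strand setting is not given, reads of these 2 cannot be told apart where they overlap. Gm49394, a protein-coding entry on the same strand as Igf2 (142650769 to 142669942), covers nearly all of it and had 0 counts in every library. Reads that fall in both entries may not have been counted for Igf2, which was not tested. The level of Igf2 per length and its ratio to H19 may therefore be off.

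The ratio of H19 to Igf2, which are switched against each other on the 2 parental copies, was not shown to differ in a design of this size. The FPKM ratio of H19 to Igf2 was 357, 944 and 315 in the knockout libraries and 285, 737 and 240 in the wild type libraries, highest in replicate 2 of each group. The log2 ratio was 8.89 ± 0.87 in the knockout and 8.53 ± 0.87 in the wild type (SD, n = 3 each), a difference of 0.36 (two-sided exact permutation p = 0.5, smallest possible 0.1). With the replicate numbers as pairs, the log2 difference was 0.32, 0.36 and 0.39, higher in the knockout in 3 of 3 pairs (two-sided exact paired permutation p = 0.25, the smallest that 3 pairs allow). H19 itself was lower in 3 of 3 pairs, by -0.61, -0.62 and -0.60 on the log2 scale of CPM, and in the edgeR fit with the replicate block its adjusted p was 0.0630. Of 10 tested genes within 250 kb of H19, 5 were higher and 3 lower, against 28.7% and 25.1% among all genes. Among the higher were Tnnt3 (2.97 ± 0.68) and Lsp1 (2.83 ± 0.30). The lower were Ifitm10 (-2.76 ± 0.45), Igf2os and the mitochondrial ribosomal protein gene Mrpl23 (-0.78 ± 0.28).

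Cdkn1c, which encodes the cyclin-dependent kinase inhibitor p57 and is expressed from the maternal copy (ENSMUSG00000037664, chromosome 7, 143458339 to 143461050, minus strand), rose. It had 21.9, 31.6 and 33.3 CPM in the knockout and 9.66, 16.6 and 20.1 CPM in the wild type, with knockout replicate 1 just above wild type replicate 3. The fold was 1.87 (unadjusted 95% interval 1.19 to 2.94, log2 fold change 0.90 ± 0.30, edgeR adjusted p = 0.0237). This call was lost without knockout replicate 2 (adjusted p = 0.0544) or 3 (0.0709), without wild type replicate 1 (0.0792) and with upper-quartile scaling (0.0582). Its relatives Cdkn1a and Cdkn1b, which encode p21 and p27, were not called (log2 fold changes -0.11 ± 0.23 and -0.19 ± 0.22, edgeR adjusted p = 0.707 and 0.499).

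Imprinted genes around Cdkn1c moved in both directions. Slc22a18 (-2.68 ± 0.39) and Osbpl5 (-1.91 ± 0.29) fell, and the transcription factor gene Ascl2 rose (2.37 ± 0.26). Phlda2, a brake on placental growth, only just passed the test as lower (-1.19 ± 0.45, edgeR adjusted p = 0.0458). It had 42, 40 and 14 counts in the knockout libraries and 61, 80 and 98 in the wild type libraries. Kcnq1ot1, the paternally expressed noncoding RNA that silences the domain, had 548, 155 and 111 counts in the knockout libraries and 644, 233 and 274 in the wild type libraries and was not called (-0.41 ± 0.53, edgeR adjusted p = 0.538). Of 10 tested genes within 250 kb of Cdkn1c, 4 were higher, 3 lower and 3 not called, against 28.7% higher and 25.1% lower among all genes. Of those not on the imprinted lists, the tumour necrosis factor receptor genes Tnfrsf22 (1.37 ± 0.28), Tnfrsf23 (4.85 ± 0.32) and Tnfrsf26 rose. So did the antisense RNA E230032D23Rik, while Cars (0.22 ± 0.25) and Nap1l4 (0.09 ± 0.20) were not called. Tnfrsf26 and E230032D23Rik each had a single wild type count.

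Grb10, an adaptor that dampens insulin and IGF receptor signalling (ENSMUSG00000020176, chromosome 11, 11930508 to 12038683, minus strand), rose. It had 61.2, 67.4 and 76.5 CPM in the knockout and 29.4, 29.0 and 42.7 CPM in the wild type, with no overlap between the groups. The fold was 2.03 (unadjusted 95% interval 1.44 to 2.86, log2 fold change 1.02 ± 0.22, edgeR adjusted p = 0.00273). Its relatives Grb7 and Grb14 were not called (log2 fold changes -0.48 ± 0.33 and -0.78 ± 0.52).

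Ndn, which encodes necdin, a MAGE family protein that restrains the cell cycle (ENSMUSG00000033585, chromosome 7, 62346569 to 62350262, plus strand), rose. It had 294, 396 and 290 counts in the knockout libraries and 54, 60 and 94 in the wild type libraries, or 16.6, 25.9 and 18 CPM in the knockout and 2.95, 3.67 and 4.99 CPM in the wild type. The fold was 5.20 (unadjusted 95% interval 3.29 to 8.21, log2 fold change 2.38 ± 0.30, edgeR adjusted p = 5.90e-05). Of its paternally expressed neighbours Peg12 rose as well (2.92 ± 0.62), on 7, 1 and 5 wild type counts. The splicing protein gene Snrpn fell (-2.99 ± 0.53). Mkrn3 only just passed the test as lower (-1.83 ± 0.70, edgeR adjusted p = 0.0459). It had 3, 26 and 6 counts in the knockout libraries and 51, 51 and 38 in the wild type libraries. Snrpn shares its transcript with Snurf, which is listed with no count, so these reads cannot be divided between them. Magel2 had 4, 2 and 0 counts in the knockout libraries and none in the wild type libraries.

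Peg3, a large zinc finger protein expressed from the paternal copy (ENSMUSG00000002265, chromosome 7, 6703892 to 6730431, minus strand), was the closest of the 10 to no difference. It had 142, 118 and 192 CPM in the knockout and 226, 126 and 194 CPM in the wild type, with replicate 2 the lowest in each group. The fold was 0.825 (unadjusted 95% interval 0.541 to 1.26, log2 fold change -0.28 ± 0.28, edgeR adjusted p = 0.420). The neighbouring gene Zim1 rose (13.4, 13.9 and 34.8 CPM in the knockout, 2.24, 1.65 and 1.33 CPM in the wild type, 3.57 ± 0.44), and Usp29 was not called (-0.80 ± 0.39, edgeR adjusted p = 0.109).

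Mest, a paternally expressed gene of the hydrolase fold that is high in growing mesoderm and fat (ENSMUSG00000051855, chromosome 6, 30723547 to 30748465, plus strand), was among the lowest of the 10. It had 100, 29 and 66 counts in the knockout libraries and 50, 33 and 37 in the wild type libraries, or 5.66, 1.89 and 4.09 CPM in the knockout and 2.73, 2.02 and 1.96 CPM in the wild type. Knockout replicate 2 lay below the whole wild type group, and knockout replicate 1 was the highest. The summed adipocyte markers were 469, 437 and 179 CPM in knockout replicates 1 to 3. Of these markers only Fabp4 and Pparg were tested. Adipoq and Plin1 had counts in knockout replicate 1 only, so the sum does not follow them. The log2 fold change was 0.80 ± 0.45 (fold 1.74, unadjusted 95% interval 0.876 to 3.45, edgeR adjusted p = 0.157), and Mest was called higher without knockout replicate 2 (adjusted p = 0.0397). Copg2, whose end overlaps that of Mest on the other strand, fell (-1.0 ± 0.21, edgeR adjusted p = 0.00195), and reads in the overlap cannot be told apart.

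**Figure D3:**
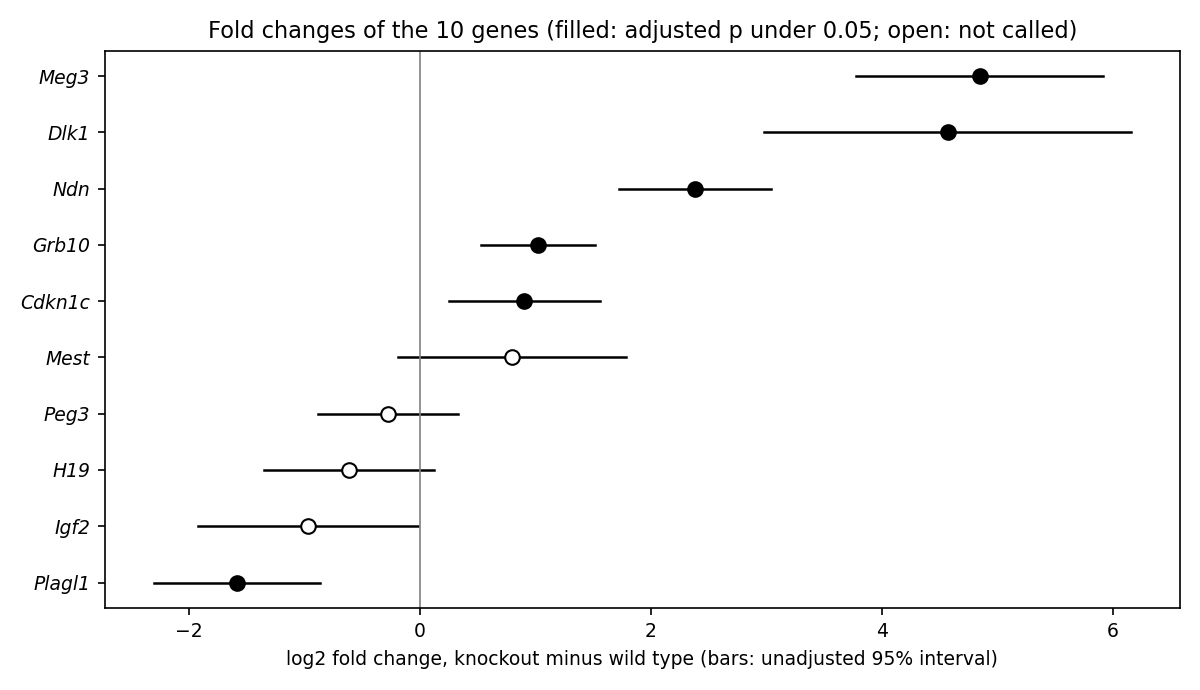
Log2 fold change of each of the 10 genes, knockout minus wild type, with its unadjusted 95% interval; filled points passed the adjusted p and open points did not. Meg3 (4.85) and Dlk1 (4.57) stand at the top, Plagl1 (-1.59) at the bottom, and the intervals of Mest, Peg3 and H19 include 0. That of Igf2, also an open point, ends just below 0.

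The order of the levels per length differed between the groups. In the knockout, H19 (591 ± 141 FPKM, SD, n = 3) was followed by Cdkn1c (14.1 ± 3.07) and Peg3 (11.2 ± 2.93), whose ranges overlapped, then by Grb10 (7.48 ± 0.90), Ndn (5.42 ± 1.32), Plagl1 (4.12 ± 2.16) and Meg3 (3.89 ± 0.97), each overlapping the next. Dlk1 (1.97 ± 0.42), Igf2 (1.33 ± 0.68) and Mest (0.979 ± 0.476) came last and also overlapped. In the wild type, H19 (889 ± 224 FPKM) was followed by Peg3 (13.3 ± 3.56) and Plagl1 (12.2 ± 1.35), which overlapped, and by Cdkn1c (7.41 ± 2.61), Grb10 (3.62 ± 0.85) and Igf2 (2.56 ± 1.32), each overlapping the next. Ndn (1.02 ± 0.28), Mest (0.552 ± 0.097), Meg3 (0.131 ± 0.082) and Dlk1 (0.0780 ± 0.109) were the lowest, and among these only Meg3 and Dlk1 overlapped.

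Beyond the 10 genes, 44 of 55 other imprinted genes could be tested, of which 15 were higher and 9 lower, against the shares of 28.7% and 25.1% among all genes. Their median log2 fold change was 0.27. Whether they are imprinted in this tissue was not tested, since the counts do not tell the parental copies apart. Of the 17 tested in the domains of the 10 genes, 5 were higher and 7 lower, and of 27 tested elsewhere 10 were higher and 2 lower. Those with the smallest adjusted p among the higher were Rian, the creatine synthesis gene Gatm (4.93 ± 0.34), the serotonin receptor gene Htr2a (12.2 ± 5.16 CPM in the knockout, a single count in the wild type), the paraoxonase gene Pon3 (2.74 ± 0.29), Ascl2 and Zim1. Among the lower they were the amino acid transporter gene Slc38a4 (29.1 ± 12.3 CPM in the knockout and 242 ± 22.9 CPM in the wild type, -3.06 ± 0.31), Slc22a18, Osbpl5, Begain, Snrpn and Copg2.

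**Figure D4:**
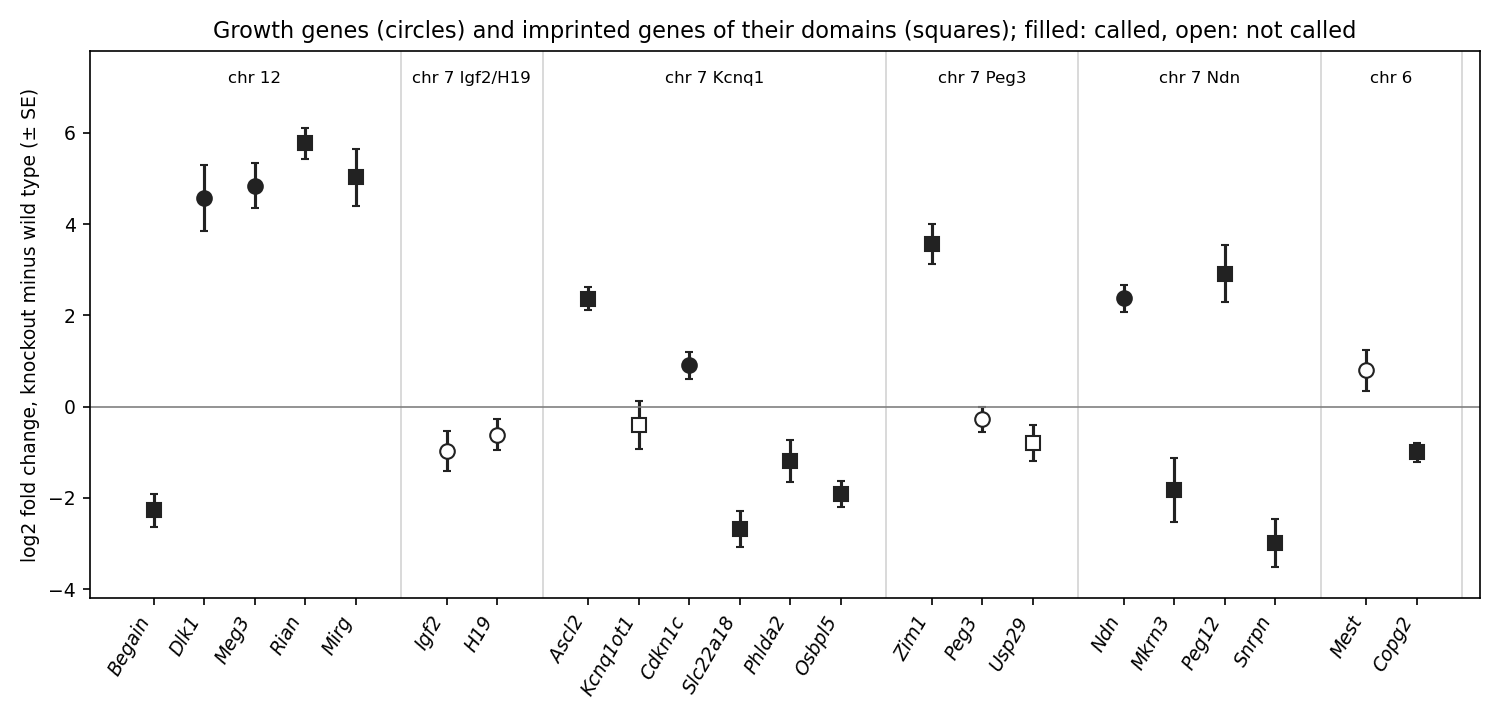
Log2 fold change (± SE, knockout minus wild type) of the growth genes (circles) and of imprinted genes in their domains (squares), grouped by domain, with filled symbols for called genes. On chromosome 12 Dlk1, Meg3, Rian and Mirg lie between 4.57 and 5.77 and Begain at -2.27, while the genes around Cdkn1c and Ndn lie on both sides of 0.

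Igf2 signals through the IGF receptors, and Grb10 dampens that signal. Of 17 tested partners in this axis 8 were higher, 2 lower and 7 not called, against 28.7% higher and 25.1% lower among all genes. Igf1 had 102, 130 and 146 CPM in the knockout and 1.47, 1.59 and 1.33 CPM in the wild type (log2 fold change 6.42 ± 0.27), and the binding protein genes Igfbp6 (5.56 ± 0.41) and Igfbp3 (3.50 ± 0.31) rose. The receptor substrate gene Irs1 (-5.01 ± 0.62) and Igfbp2 (-2.31 ± 0.43) fell. The receptor genes Igf1r (1.01 ± 0.23) and Igf2r, itself imprinted and a clearing receptor for Igf2 (0.94 ± 0.25), rose, while Insr, Irs2, Igf2bp1, Igf2bp2, Igf2bp3, Igfbp4 and Igfbp5 were not called. Among the relatives of the 10 genes, Dlk2 fell (3.40, 3.07 and 1.24 CPM in the knockout, 42.5, 45.2 and 39.7 CPM in the wild type, -4.04 ± 0.35), opposite to Dlk1.

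The genes with the most similar profiles were named by the root mean square difference of centred log2 CPM over the 6 libraries, among 11904 other genes averaging 5 CPM or more (11905 for Mest, which averages less). For Meg3 these were Sulf1 (0.195), Fads3 (0.237) and Aatk (0.308), and for Dlk1 Cyp26b1 (0.442), Ifi213 (0.509) and Pcolce (0.535). For Ndn they were Nfkbia (0.136), Nsmce1 (0.137) and Clta (0.158), and for Plagl1 Usp20 (0.0705), Gm20219 (0.112) and Susd4 (0.113). For H19 they were Gm5641 (0.0645), Pdzd11 (0.0766) and Mocs2 (0.0851). For Igf2 they were Gm9770 (0.168), Hif3a (0.222) and Kif3c (0.241), for Cdkn1c Rilpl2 (0.129), Gosr2 (0.144) and Nans (0.169), and for Grb10 Atg4a (0.0628), St6gal1 (0.103) and Zfp709 (0.105). For Mest they were Klhl18 (0.0632), Epg5 (0.0778) and Arhgap27 (0.0803), and for Peg3 Prrc2c (0.0585), Gabpb2 (0.0964) and Pou2f1 (0.0985). The libraries fall into 2 groups, so that this measure follows the group difference first.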

How the data were processed

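The authors deposited 2 tables of the same 54532 genes and 6 libraries, whole-number read counts and FPKM. Per the submitters' processing notes, HISAT2 2.0.5, featureCounts 1.5.0-p3 and the build mm10 were used, and no annotation release or strand setting is given in the sources used here. The start and end of 98.3% of genes, and of all 10 described here, equal those of GENCODE M21 (GRCm38). The deposited FPKM values equal count over gene length with a single library size per library, 0.891 to 1.17 times its count total.

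The deposited counts were tested with edgeR 4.0.16 in R 4.3.3 (TMM factors, expression filter with minimum count 10 and minimum total 15, robust quasi-likelihood fit, genotype only), with Benjamini-Hochberg adjustment over 16471 genes and a threshold of 0.05. CPM values use the TMM factors, mean ± SD is over 3 libraries, and the SE was derived from the F statistic, as was the 95% interval of a fold. FPKM was used only to compare genes with each other and in alternatives. The genes, lists and tests were chosen with earlier results of these data known. The text names all 10 genes, the called genes of each list with the smallest adjusted p (6 per direction for imprinted genes, 3 for IGF partners and relatives), the 3 nearest profiles per gene, and the 2 most abundant markers of each cell type, of which 1 is not reported here. Other named genes were chosen after their values were seen, as was the 250 kb window around each gene.

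Libraries with the same number deviated together from their group means (r = 0.23, 0.34 and 0.18 across genes, -0.32 to 0.07 for other pairs), so the numbers were taken as pairs for a replicate block, though what a number marks is not in the labels. No 2 libraries of a group agreed within sampling noise (chi-square per degree of freedom of 29.8 to 80.5). The alternatives tried were scaling by RLE, upper quartile or library size alone, no filter, a filter at 1 CPM in 3 libraries, DESeq2 1.42.0, limma-voom and limma-trend (3.58.1) on log2(FPKM + 1) and log2(FPKM + 0.1), the replicate block, and leaving out each library or both numbered 1.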

Additional observations from a re-analysis of the deposited data

How the results depend on the processing

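Across 17 alternatives the direction of all 10 genes was kept. The calls of Meg3, Dlk1, Ndn, Grb10 and Plagl1 held in each of the 17, and Peg3 was called in none. The number of the 10 called higher was 4 to 5. The number called lower was 2, against 1, with upper-quartile scaling (Igf2 and Plagl1), library-size scaling (H19 and Plagl1), no filter and the replicate block (Igf2 and Plagl1 in both), and 1 to 2 when a library was left out. The replicate block changed no other call among the 10 genes. For the other imprinted genes 14 to 18 were higher and 6 to 13 lower. The log2 difference of the H19 to Igf2 ratio ran from -0.14 to 0.85 when a library was left out, negative only without knockout replicate 2. That of the Meg3 to Dlk1 ratio ran from -1.51 to 0.64, positive only without wild type replicate 3, and was 0.48 with log2(FPKM + 0.1), which damps the low wild type values. On the log2(FPKM + 1) scale, which shrinks the change of low genes, the log2 differences were 2.09 for Meg3 and 1.46 for Dlk1. Dlk1 and Meg3 rest on 25 and 134 wild type counts, so the size of their rise is less certain than its direction.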
